A study of Drosophila melanogaster with 3 samples.

Results

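Of the 9789 peaks on the 7 main chromosomes in the IDR list (irreproducible discovery rate, which compares peak ranks between replicates), 1206 had their summit in an intron at over 500 and up to 2000 bp from the nearest annotated transcript start. These 1206 intronic peaks near gene starts are the members described here. A peak was a member when its summit lay inside an annotated gene, outside every exon and in that window of distance, so position alone chose it. The summit is the base that the deposited list gives as the highest point of a peak. The bases of the genome that meet this rule are called eligible bases below, and there were 11448546 of them, or 8.32% of the assembled bases. Members made up 12.3% of the summits (exact 95% interval 11.68% to 12.99%, counting error only). The name "just downstream of gene starts" held for some of them only: 706 members (58.5%) lay downstream of a start of the gene that holds them.

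The data came from chromatin immunoprecipitation with sequencing (ChIP-seq) of whole Drosophila melanogaster embryos. The embryos were 0 to 16 hours old, of both sexes pooled, and from a transgenic line with stable expression of CG2712 carrying GFP, a green fluorescent protein, at its C terminus. An antibody against GFP was used, 3 biological replicates formed the only group, and peaks were called against 1 control file, with the labels naming a possible control experiment. Every embryo carried the tagged protein, so there was no second genotype, treatment or age to compare. The promoter that drives the fusion is not given in the sources used here, and neither is the level or function of the fusion beside the normal protein. A peak from whole embryos of mixed age does not show in which cells or at which stage the protein was present. Each replicate list held 30000 peaks, read depth is unknown, and the 9789 strongest peaks of each replicate were used where equal numbers were needed.

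A fly gene often begins with a short exon followed by a long intron, and such introns are well known to hold enhancers, the stretches of DNA at which transcription factors control a gene from a distance. Many fly genes also have several transcript starts, so an intron near one start can lie just upstream of another. CG2712 encodes a zinc finger protein of the C2H2 kind, a family whose fingers often contact DNA.

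The sequences below show what the windows around member summits look like. They are the summit and 50 bases to either side of it in 6 of the 7 strongest members and 2 of the weakest, named by the gene that holds the summit (RefSeq sequence, build dm6, plus strand, 5′ to 3′). Capitals mark runs of 5 or more bases that are A or T only, found by letter.
ush, chr2L:481007-481107: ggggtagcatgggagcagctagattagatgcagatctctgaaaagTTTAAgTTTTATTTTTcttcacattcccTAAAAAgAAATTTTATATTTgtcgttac
CG11050, chr2L:6612659-6612759: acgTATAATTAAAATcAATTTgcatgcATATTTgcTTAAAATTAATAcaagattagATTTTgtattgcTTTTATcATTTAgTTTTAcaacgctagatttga
Trl, chr3L:14759450-14759550: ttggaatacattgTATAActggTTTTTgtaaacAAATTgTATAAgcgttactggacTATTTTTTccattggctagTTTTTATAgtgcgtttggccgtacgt
Lk6, chr3R:11760992-11761092: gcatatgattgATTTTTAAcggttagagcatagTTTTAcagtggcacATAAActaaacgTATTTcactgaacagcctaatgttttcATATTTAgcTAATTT
CG32772, chrX:4910309-4910409: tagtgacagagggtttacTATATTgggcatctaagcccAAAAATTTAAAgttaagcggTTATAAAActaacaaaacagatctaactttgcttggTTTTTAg
CG9663, chr2L:3302149-3302249: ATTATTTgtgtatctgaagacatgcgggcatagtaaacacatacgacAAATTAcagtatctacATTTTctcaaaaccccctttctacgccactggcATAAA
Sxl, chrX:7086708-7086808: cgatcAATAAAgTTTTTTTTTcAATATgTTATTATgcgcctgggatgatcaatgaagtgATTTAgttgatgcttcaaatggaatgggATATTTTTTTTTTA
CG33939, chrX:19173086-19173186: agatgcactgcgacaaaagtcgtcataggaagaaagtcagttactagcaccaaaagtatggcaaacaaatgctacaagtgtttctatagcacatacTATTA
In the window in ush 33.7% of the bases were in such runs, and in the window in CG11050 the share was 55.4%. The shares were 35.6% in Trl, 35.6% in Lk6, 30.7% in CG32772 and 22.8% in CG9663. The weak member in Sxl had 45.5% and the weak member in CG33939 had 4.95%, so the weak members shown included both a window full of such runs and a window almost without them. Over all members the share was 35.3% (36.1% for far intronic and 32.2% for promoter peaks), beside 19.3% in windows of the same size 300 bp to either side and 24.5% in 113413 windows of eligible bases. In the same eligible windows weighted to the GC content of the members it was 36.2%, so such runs were about as common as in windows with as little G and C (both the count of runs and the weighting were chosen after the data were seen).

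Whether the protein was found more often in these introns than their size gives was asked by setting the share of summits against the share of bases. Members were 12.6%, 13.2% and 12.1% of the strongest summits of replicates 1, 2 and 3, or 1.51, 1.58 and 1.45 times their share of bases (mean 1.52 ± 0.067, SD, n = 3). All 3 replicates lay above 1 and close to each other. Introns over 2000 bp from a start, which held 2120 IDR summits, gave a ratio of 0.683 ± 0.033. Promoters, here the bases within 500 bp of a start with 4516 IDR summits, gave 3.52 ± 0.21. The log2 ratio of members was 1.15 ± 0.016 above that of the far introns and −1.21 ± 0.14 relative to promoters (mean ± SD, n = 3), and in all 3 replicates the order was promoter, member, far intron. With 3 replicates the smallest p that an exact sign-flip permutation test can give is 0.25, which both differences reached (two-sided), so this test cannot go below 0.05 with these data. The plot of summit share by class shows the same values.

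**Figure D1:**
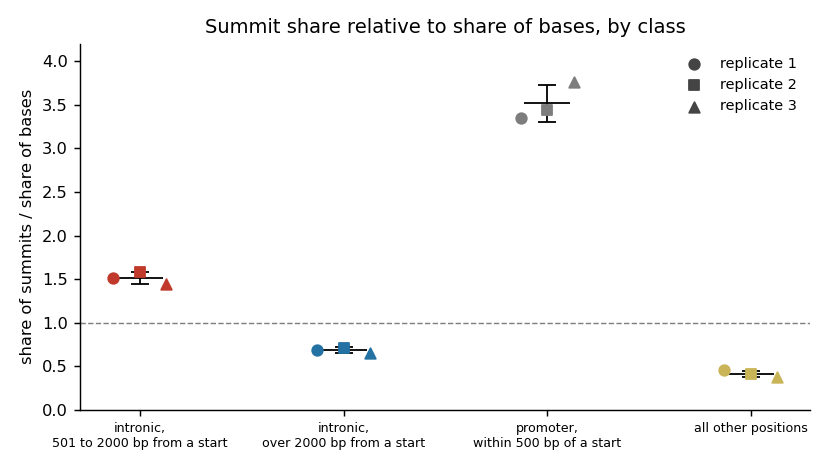
Share of the strongest summits of each replicate in 4 classes of position, divided by the class's share of assembled bases (y axis, a ratio with no unit), with points for replicates 1 to 3 and a bar for the mean ± SD. The dashed line is a ratio of 1; member points lie between 1.45 and 1.58, above far introns and below promoters.

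Members were common near starts and grew fewer with distance. Over bases that are inside a gene and outside exons, the density of IDR summits was 0.127 per kb in the first 250 bp of the window, 0.117 in the next 250 bp, then 0.106, 0.0886 and 0.0966, and 0.0866 at 1751 to 2000 bp. Inside the promoter window it was 0.292 per kb at 1 to 250 bp and 0.161 at 251 to 500 bp, and in the 250 bp beyond the window it was 0.0757. Each of these bins was lower than the bin before it except the bin at 1501 to 1750 bp. The 50 bp just inside the inner edge held 61 members of median signal 559, and the 50 bp just outside it held 60 summits of median signal 473. At the outer edge the last 50 bp held 32 members of median signal 399.6, and the 50 bp beyond held 30 summits of median signal 483. The signal is the value that the authors' caller gave a peak, in its own scale.

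The fall with distance differed by side. Upstream of a further start of the same gene, the density went from 0.208 per kb in the first 250 bp of the window to 0.112 at 1751 to 2000 bp. Downstream of a start of the gene that holds the summit it stayed between 0.0946 and 0.127 per kb over the whole window. Within 250 bp of a start, outside the window, the densities were 0.478 on the upstream side and 0.102 on the downstream side. The plot of density by distance shows both sides.

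**Figure D2:**
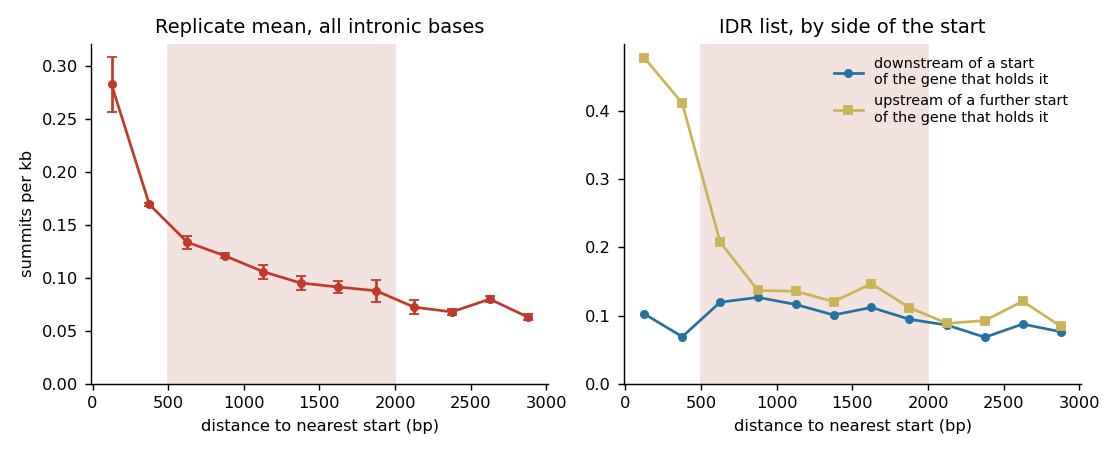
Density of summits in summits per kb of intronic sequence (y axis) by distance to the nearest transcript start in 250-bp bins (x axis), with the member window shaded. The left panel gives the mean ± SD of the strongest peaks of 3 replicates and the right panel the IDR list by side of the start, where the upstream line starts the window at 0.208 per kb and the downstream line at 0.120.

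Members fell into 4 kinds by the start nearest to them. The 706 members downstream of a start of their own gene were 58.5% of members on 54.5% of eligible bases, at 0.113 per kb (0.115 ± 0.0047 over replicates). The 283 members upstream of a further start of their own gene were 23.5% on 16.6% of the bases, at 0.149 per kb (0.154 ± 0.0061). Another gene's start was nearest for 142 members on its upstream side and 75 on its downstream side, at 0.0658 and 0.0653 per kb. Members were thus densest just upstream of internal starts: the log2 density downstream minus that upstream of a further start was −0.41 ± 0.046, negative in 3 of 3 replicates (exact sign-flip permutation p = 0.25). The signal of the kinds was close, with medians of 465, 473, 407 and 407 in that order.

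The first introns of transcripts held 973 members (80.7%) on 64.5% of the eligible bases. The log2 density in first introns minus that in other introns was 1.18 ± 0.067, positive in 3 of 3 replicates (exact sign-flip permutation p = 0.25). Counted in the gene that holds the summit, 968 members were in intron 1, 150 in intron 2 and 88 in a later intron. Members in first introns had a median signal of 463 and the others 418. The nearest start belonged to a protein-coding gene for 1070 members and to a noncoding gene for 136. No member lay within 500 bp of a RefSeq transcript start (0 of 1206), a comparison of annotations that was added after the data were seen. Members lie over 500 bp from every start of the annotation used, by rule. The comparison therefore shows only that RefSeq gave no nearer start at a member.

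Members were sparse next to exons and in short introns. Within 50 bp of an exon or gene end the density was 0.0188 per kb, at 50 to 100 bp it was 0.0491, at 100 to 200 bp 0.0960, and at 200 to 400 bp 0.136. Exon-free stretches of up to 1000 bp held 135 members at 0.0538 per kb, while stretches of 1000 to 2000 bp held 244 at 0.121. In longer stretches it was 0.123 at 2000 to 5000 bp and 0.0917 over 20000 bp. The median member lay 1061.5 bp from a start and 649.5 bp from an exon, in a stretch of 3138 bp.

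By median signal the members were somewhat above each other class of position, with ranges that overlapped. Their median signal was 456 (quartiles 291 and 807, range 206 to 10387), beside 387 for far intronic peaks, 419 for promoter peaks and 401 for all other positions. Above the middle of the IDR list stood 54.8% of members, 46.4% of far intronic peaks, 51.2% of promoter peaks and 48.2% of the others. Of the 100 strongest IDR peaks 12 were members, about the share of members in the whole list (12.3%). The median width was 358 bp. The intervals of 34 members were listed more than once with different summits.

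Members repeated in the replicates a little more often than IDR peaks in general. A peak overlapping the member was listed in all 3 replicates for 1149 members (95.3%), beside a background of 92.7% of all IDR peaks. It was among the strongest peaks of all 3 for 885 members (73.4%), beside 70.7% of all IDR peaks, 68.5% of far intronic and 71.9% of promoter peaks. In replicates 1, 2 and 3 separately the share among the strongest was 86.7%, 93.3% and 86.8% (88.9% ± 3.76, SD, n = 3). Only 2 members were among the strongest peaks of no replicate. These shares lie within a few points of the background, so they say little that is particular to the members. The IDR list was made from the same replicates, so recovery in them is no independent test.

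By rank of signal the members' median was 4625 in replicate 1, 3947 in replicate 2 and 4615.5 in replicate 3, of 30000 peaks, where a member with no peak took a rank after the last. Expressed as percent of the list, this differed by −3.06 ± 0.12 points from far intronic peaks, which is nearer the top, in 3 of 3 replicates (exact sign-flip permutation p = 0.25). Against promoter peaks the differences were 1.51, −2.63 and 0.903 points in replicates 1, 2 and 3, which differ in sign (mean −0.072 ± 2.23, exact sign-flip permutation p = 1). Among members the signals of replicates had Spearman rank correlations of 0.875 (replicates 1 and 2, n = 1164), 0.850 (1 and 3, n = 1153) and 0.882 (2 and 3, n = 1182), as a description over peaks that share the control file.

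The strongest member lay in the first intron of ush, which encodes a zinc finger cofactor of GATA factors. Its signal was 10387 (rank 9 of the IDR list), and it ranked 12, 7 and 10 in replicates 1, 2 and 3. The start nearest to it, 1369 bp away, was that of cbt, a zinc finger transcription factor gene, which has a promoter summit of its own. The next, in CG11050, had a signal of 9946 and ranks of 17, 8 and 11. It sat in intron 2, in an exon-free stretch of only 140 bp and 69 bp from the nearest exon, unlike most members. Trl encodes the GAGA factor, a DNA-binding protein of active promoters and trithorax group function, and its strongest member had a signal of 7210 with ranks of 25, 17 and 24, at 1538 bp upstream of a further Trl start. Lk6, a kinase that acts on the translation factor eIF4E, had a member of signal 6671 at 963 bp upstream of a further start, ranked 31, 20 and 29. CG32772 had a member of signal 6032 in its first intron at 1257 bp downstream of its start, ranked 33, 30 and 37. In each of these 5 members the ranks of the 3 replicates lay close together, and the sequences of all 5 stand above.

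HmgZ, a high mobility group protein gene, followed with a signal of 5283 and more uneven ranks of 28, 62 and 68. CG9663 had 2 of the 30 strongest members within 1 interval, with summits at 931 and 732 bp downstream of its start. Further genes among the 30 were chif, whose product is needed for chorion gene amplification, simj, which encodes a NuRD complex subunit, Alh, Tis11, an RNA decay factor, LPCAT, Dif, an NF-κB factor of the immune response, NFAT and Adf1. They also included the foraging gene for, which encodes a cGMP-dependent protein kinase, Dok, bmm, which encodes a lipase, brat, a translational repressor, edl, a regulator of ETS factors, bon, mub, Btk, Reph, CG9837, CG31635, CG4496, CG3726 and CHES-1-like. All 30 were among the strongest peaks of the 3 replicates, with the lowest ranks at 358, 232 and 225. They were picked by the signal of a list made from these replicates, so such ranks follow in part from that choice. Of them 27 lay in the first intron of a transcript, 15 lay downstream of a start of their own gene, and 17 had a promoter summit at the nearest start. Over all members these shares were 80.7%, 58.5% and 42.8%. At the ends of the window, members in stv and Nost lay nearest to a start, at 502 bp for Nost and 1 bp less for stv, and members in tx and crol lay 1996 and 1999 bp from it.

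**Figure D3:**
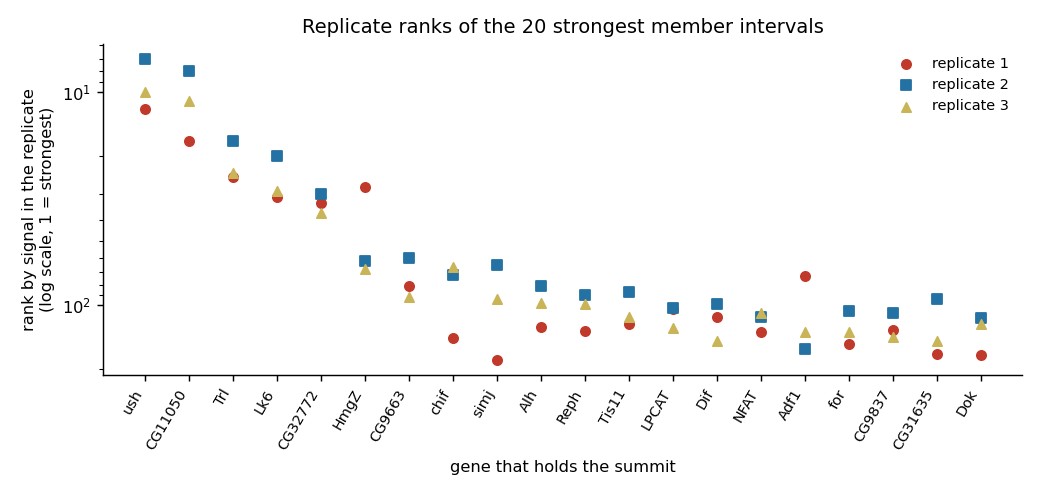
Rank by signal in each of 3 replicates (y axis, log scale, 1 is the strongest peak at the top) for the 20 strongest member intervals, named by the gene that holds the summit (x axis). The ranks of ush run from 7 to 12 and those of HmgZ from 28 to 68.

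Some genes held several members. Of 861 host genes, 639 held 1 member, 151 held 2 and 71 held 3 or more. CG1677 held 9 and Tlk, a chromatin-associated kinase gene, held 8, on 22970 and 17688 eligible bases. The strongest in CG1677, of signal 2439, 2328 and 1312, were nearest to starts of other genes, namely brk, CBP and unc-119. The genes shn, tna, pnt and SNF4Agamma held 6 each. These are a large zinc finger factor of Dpp signalling, a trithorax group protein, an ETS factor downstream of Ras and a subunit of AMP-activated kinase. The 8 genes with 5 members included CHES-1-like, NFAT, CG42258, Svil, CG32264, shot and shep, and ush was among the 13 genes with 4. In NFAT the 5 members shared 6034 eligible bases, while the 5 of Svil were spread over 35215. The median gap from a member to the next IDR summit was 1405 bp, beside 2243.5 bp for far intronic and 2347 bp for promoter summits. By rule members lie within 2000 bp of a start, beside the promoter bases where summits were densest, and far intronic peaks do not. The gap that position alone would give was not computed, so these values have no background beside them.

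Genes with a member often had a peak at a promoter too. Of 594 protein-coding genes with a member downstream of their own start, 436 (73.4%) had a promoter summit. The background over the 9015 protein-coding genes with eligible bases was 41.6%, and it was 39.3% for those without such a member. In replicates 1, 2 and 3 the share among genes with a member was 67.5%, 68.6% and 74.96%, and the difference from other eligible genes was 30.8 ± 2.93 points (SD, n = 3; exact sign-flip permutation p = 0.25). The difference was positive in 3 of 3 replicates. For genes of a single start position the shares were 65.4% with and 33.7% without a member, and for genes of more than 3 start positions 88.6% and 62.9%. By size the difference over replicates was 26.9 ± 3.998 points for genes of up to 1000 eligible bases, 29.3 ± 3.99 at 1000 to 2000, 22.8 ± 4.86 at 2000 to 4000 and 35.1 ± 3.98 over 4000. By number of start positions it was 26.1 ± 3.73 points for 1, 23.6 ± 1.58 for 2 or 3 and 19.1 ± 6.54 for more than 3. It was positive in every replicate in each of these splits, which were added after the data were seen. At the nearest start itself 516 members (42.8%) had a promoter summit, 54.2% of those downstream of their own start and 27.2% of those upstream of a further start. The share over all starts was not computed, so these values have no background beside them.

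Lists of genes by function differed in how often they held a member, and so did their room for one. Over all 9015 protein-coding genes with eligible bases 881 held a member (9.77%), but the share rose from 0.544% in genes of up to 500 eligible bases to 43.4% in genes of over 4000. Counts of genes are therefore given with members per kb of eligible bases, which was 0.106 over all genes. A gene counts here when its span holds the summit, whichever start is nearest, and the lists are described with no test.

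Signalling genes held many. Of 28 genes of the receptor tyrosine kinase and Ras pathways, which carry growth factor signals, 16 held a member (57.1%, 0.329 per kb). The receptor gene InR had its strongest member at signal 1278, ranked 1209, 1113 and 952, and the ligand gene ths at 1224, ranked 1438, 902 and 1299. S, which encodes a chaperone of EGF ligands, had a member of signal 1688 ranked 669, 667 and 612, and Src64B, a kinase gene, held 4. Of 36 genes of the Notch, Wnt, Hedgehog and Dpp pathways 15 held a member (41.7%, 0.215 per kb). In the Dpp pathway these included the receptor gene tkv (signal 1597), the signal transducer Mad (2558, ranked 285, 271 and 333) and shn (2610, ranked 374, 234 and 271). In the Notch pathway neur, which encodes an enzyme that modifies Notch ligands, had a member of signal 1089. These 4 members stood at ranks 270, 285, 713 and 1351 of the IDR list, for shn, Mad, tkv and neur.

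RNA-binding genes were also above the share over all genes. Of 34 genes for splicing and RNA-binding proteins 16 held a member (47.1%, 0.146 per kb), with brat (3334), mub (2946), pum, a translational repressor (1321), and ps (1191) the strongest. The start nearest to the summit in pum was that of lncRNA:CR45196. For the RNA-binding genes the density was thus nearer to the 0.106 of all genes than the share of genes was, and their median of 3666.5 eligible bases compares with 387 over all genes.

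Regulators of transcription were mixed. Of 35 zinc finger and chromatin-binding factors 13 held a member (37.1%, 0.252 per kb), with ush and Trl followed by zfh1 (signal 2324) and psq (1304). Of 30 Polycomb and trithorax group genes, which keep genes silent or active through development, 7 held a member (23.3%), and these 7 held 17 members in all (0.326 per kb). Besides Trl they included tna (2052), ph-p, a Polycomb subunit gene (1642), and brm, the ATPase of a remodelling complex (587, with no peak in replicate 1), where the nearest start was that of CG17029, which also holds the summit. Nuclear receptor and ecdysone genes gave 6 of 17 (35.3%, 0.100 per kb), among them Hr3 (1252), EcR (947), Hr4 (912) and br (748). Of these only the Hr4 summit was nearest to a start of that gene, the others being nearest to starts of lncRNA:CR46322 (Hr3), a tRNA gene (EcR) and Mur2B (br). The 3 of 19 bHLH genes (15.8%, 0.0947 per kb) were crp (1665), sim (298) and Mitf (245).

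Other lists lay near or below the rate per kb over all genes. Of 54 homeodomain and segmentation factors 7 held a member (12.96%, 0.0615 per kb), led by Antp (1768), Abd-B (790), Ubx (501.4) and vnd (310). In Antp and Ubx the nearest start was that of a noncoding gene. Of 39 axon guidance and adhesion genes 9 held a member (23.1%, 0.0733 per kb), with Ten-a (1548), fra, the netrin receptor gene (1171), unc-5 (588) and NetB, a netrin gene (508). The nearest starts were those of CG33752 for fra and hog for NetB. Of 35 ion channel and synaptic genes only dlg1, a scaffold gene, held members (2.86%), and it held 3, at 0.0181 per kb. That list had a median of 4107 eligible bases per gene, so it was low despite much room. Ribosomal protein genes had little room, with medians of 102 and 113 eligible bases: of 27 cytosolic ones 0 held a member, and of 22 mitochondrial ones only mRpS9 did, where the nearest start was that of wtrw. The plot of gene lists gives all 12.

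**Figure D4:**
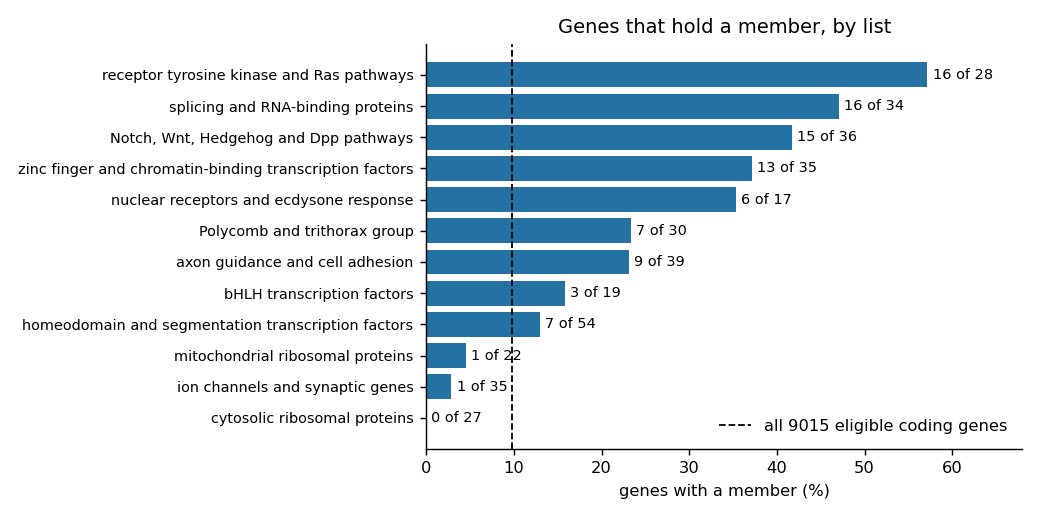
Share of the eligible genes of each of 12 lists that hold a member in percent (x axis), with the counts beside each bar. The dashed line is the 9.77% over all 9015 eligible protein-coding genes, and 9 lists lie above it. The share takes no account of eligible bases per gene. Of the lists above the line, the homeodomain, axon guidance, bHLH and nuclear receptor lists were below all genes in members per kb.

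The DNA at member summits was poor in G and C. In windows of the summit and 50 bp to either side the mean GC content was 31.3% at IDR member summits and 43.5% in windows 300 bp to either side. In replicates 1, 2 and 3 it was 31.0%, 32.3% and 32.7% at the summit, and the difference from the flanks was −12.8, −11.1 and −10.4 points (mean −11.4 ± 1.22, exact sign-flip permutation p = 0.25). Over all eligible windows the mean was 39.2%, and 1003 members (83.2%) lay below the median eligible window of 39.6%. The dip was narrow and sat in a region of raised GC content, as the plot of GC content shows. The 242 strongest members had 28.2% GC at the summit, and the following groups of 241 in order of signal had 29.99%, 31.4%, 33.4% and 33.7%, so GC content was lowest where the signal was highest. The kinds of member differed little, from 30.7% to 31.5%.

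Compared with other classes, members resembled far intronic peaks and had a lower GC content than promoter peaks. Over replicates their summits were −2.86 ± 0.31 points from promoter summits and 0.69 ± 0.21 points from far intronic ones, each of 1 sign in all 3 replicates (exact sign-flip permutation p = 0.25 for both). Promoter summits could lie in exons, which the rule for members excludes. How much of the difference from promoters comes with that rule was not tested.

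Short sequences of A and T were frequent at member summits, as they were at those of the other classes. The 10 sequences of 8 bases most in excess at promoter summits of the same list, over their flanks, were looked up at members by exact match on both strands. Of these 8 held only A and T, several of which overlap each other, and any of the 8 was found in 388 members (32.2%), beside 10.5% of flanks and 17.2% of eligible windows. Far intronic summits had 32.4% and promoter summits, where the sequences were chosen, 31.5%. In eligible windows weighted to the GC content of the members, a comparison added after the data were seen, the share was 31.3%. TATAAA, the core of the TATA box, was found in 26.5% of members, 9.08% of flanks, 14.4% of eligible windows and 24.9% of the weighted ones. It was found in 29.0% of far intronic and 22.0% of promoter summits. In both cases the share at members was close to that of windows with as little G and C.

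The other 2 sequences, ATCGATAG and TATCGATA, overlap each other and belong to the DNA replication-related element, a promoter sequence of housekeeping genes. TATCGATA was found at 239 promoter summits (5.29%) but at 1 member summit (0.0829%), beside 0.203% of eligible windows. Among the members of replicates 1, 2 and 3 the share was 0.243%, 0.233% and 0.424%, all above the value of the IDR list, which rests on 1 summit. Since ATCGATAG and TATCGATA were chosen for their excess at promoter summits, the contrast with promoters is partly set by that choice. GGTCACAC, a further core promoter sequence known as Motif 1, was found at 152 promoter summits (3.37%) and 3 member summits (0.249%). For Motif 1 the flanks of members had 0.124%, eligible windows 0.138% and the weighted ones 0.0884%. Very few member summits stand behind the values of either sequence.

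Known sequences of other factors lay on either side of the share in eligible windows weighted to the members' GC content. GAGAGAG, bound by the GAGA factor, was found in 1.41% of members and 3.77% of flanks, with 1.60% of eligible windows and 0.808% of the weighted ones. CACACACA was found in 1.58% of members, 5.27% of flanks and 1.28% of the weighted windows, and the E-box CAGCTG in 2.40%, 4.60% and 2.04%. The AP-1 site TGANTCA was found in 3.57% of members, 2.94% of flanks and 2.86% of the weighted windows. In the same order, the Zelda site CAGGTA gave 1.49%, 2.49% and 1.83%, and the GATA site AGATAAG 1.24%, 1.62% and 1.797%. The Pho core GCCAT gave 12.1%, 17.7% and 12.8%, and AAAAAAAA gave 7.55%, 7.13% and 10.7%. Members of the IDR list were thus above the weighted windows for the first 4 sequences named here and below them for the other 4. No test was made of these differences, and several changed side in a replicate. In replicate 1 GAGAGAG was found in 0.486% of members and CACACACA in 0.891%, both below the weighted windows. In replicate 3 TGANTCA was below them at 2.72%. In replicate 2 AGATAAG was above them at 1.94%, and so was GCCAT at 13.1%. The remaining sequences kept their side in each replicate. A match is a description of letters and shows no binding by those factors.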

How the data were processed

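ChIP-seq peak lists of 3 biological replicates of 1 group were used, with the list called on all replicates and the IDR list (dm6, per the labels). Peaks were called against 1 control file, per the text deposited with the lists. What aligner, caller and IDR setting were used is not given in the sources used here. Peak strength is the deposited signal, the authors' value per peak, whose scaling by depth is unrecorded, so replicates were compared by rank and overlap (any shared base). The deposited −log10 q was 4.34 for every IDR peak and ranked nothing. The IDR list equalled the 9789 strongest pooled peaks. Replicate 3 had 9767 of its 9789 strongest peaks on the 7 chromosomes.

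Ensembl release 115 without transposable elements gave 18277 genes and 23694 start positions, and sequence was RefSeq's. Summits were assigned by position, and bases were counted by the same rule. Tests were exact two-sided sign-flip permutations over replicates. Means are ± SD. The labels number the samples as biological replicates, and the SD covers the spread between them. Exact intervals are Clopper-Pearson at 95% and cover counting error. The tools were pandas 2.3.3, NumPy 2.4.6, matplotlib 3.10.9 and SciPy 1.17.1 under Python 3.11.15, and the functions were tested on simulated summits and sequences.

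Members, gene lists and sequences were chosen with earlier results of these data known. Genes were named by a rule: CG2712, the 30 strongest members, up to 15 genes with 3 or more members, up to 4 genes of each list by signal, and the members at the ends of the window. Some items that the rule and the lists name are not reported here. Comparisons added after the data were seen are named as such where they stand. Alternatives were other windows, starts, overlap rules, fewer peaks and leaving out each replicate.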

Additional observations from a re-analysis of the deposited data

How the results depend on the processing

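Samples could not be paired between groups because the 3 replicates form a single group and there is no second group. Classes of position were compared within each replicate, so those tests pair values by replicate. Of 93 values recomputed, 80 kept their direction or moved by less than the spread between replicates. The ratio to bases, its differences from far introns and promoters, the rank against far introns, the link to promoter summits and both sequence results kept their direction under all alternatives tried.

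The rank difference from promoter peaks did not keep its sign. It was −0.861 to 1.20 points when 1 replicate was left out and 0.435 with the inner edge of the window 250 bp further out. With only the stronger part of the IDR list (ranks above the middle of the list), ranked in the whole replicate lists, it was 0.064. The share of members among the strongest peaks of every replicate used was 76.9% to 82.1% with 1 replicate left out, where fewer lists must agree. For the stronger part of the IDR list it was 97.3%, set against the same 9789 strongest peaks of each replicate, so this rise follows in part from that choice. When both peaks had to share 50% of their length it was 50.7%. The share downstream of a start of the own gene was 59.6% in the stronger part of each replicate's strongest peaks. It was 60.5% with the inner edge further out and 63.6% with starts of protein-coding genes only. In the first introns the share was 82.5% in the same stronger part of the replicates, 81.6% with the outer edge 500 bp closer and 82.1% with protein-coding starts only. The cause was not tested. Restricting the IDR list to peaks among the strongest of all 3 replicates changed no direction, and it gives no value for the repeat in replicates, which it sets. Of the 12 gene lists, 9 lay above the share over all genes, and 7 did with the stronger part of the IDR list. These counts take no account of eligible bases per gene. Of the 9, the homeodomain, axon guidance, bHLH and nuclear receptor lists were below all genes in members per kb. The unknown read depth limits what the lack of a listed peak can show.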

Other observations

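Members were spread over the large chromosome arms at similar rates. Relative to the rate over all arms, the density of members in the IDR list was 0.863 on 2L, 0.956 on 2R, 1.03 on 3L, 1.06 on 3R and 1.13 on X. Chromosome 4, which is small and largely heterochromatic, held 3 members on 129390 eligible bases, a ratio of 0.220. In the strongest peaks of replicates 1, 2 and 3 it held 2, 2 and 5 members, at ratios of 0.143, 0.137 and 0.376, all below those of the large arms. The Y had 19062 eligible bases and no listed member. The gene of the tagged protein, CG2712, had 130 eligible bases and no member, with 1 IDR summit within 2 kb of it.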
